A study of Mus musculus with 6 samples.

Results

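The MHC class II genes encode the molecules with which a dendritic cell, macrophage or B cell shows peptides to CD4+ T cells, together with the chaperones that load them and the coactivator that switches them on. Their expression was followed in whole mouse lung in which smooth muscle carried a dominant-negative BMP type 2 receptor (dnBMPR2). The set was Cd74, H2-Aa, H2-Ab1, H2-Eb1, H2-DMa, H2-DMb1, H2-Oa, H2-Ob and Ciita, 9 genes named for their role. They were chosen with earlier results of these data known. A probe set belonged to the group when the platform annotation gave it 1 gene symbol and that symbol was one of the 9. This gave 16 probe sets for 8 genes, out of 34945 single-symbol probe sets for 18193 genes. H2-DMb1 had none, because both probe sets that name it also name H2-DMb2. Of the 16, 13 probe sets passed the filter on low signal (a mean above the 40th percentile of all probe sets). They still covered 8 genes, out of 13215 genes with a probe set that passed.

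The series held 6 Affymetrix arrays, each a pool of whole-lung RNA from 3 mice, 18 mice in all. There were 3 groups of 1 female and 1 male pool: controls, inducible SM22-dnBMPR2 transgenics with the transgene active for 1 week, and the same transgenics active for 8 weeks. The series description gives the controls as mice with the transactivator alone. The male control label names SM22-rtTA only, whereas the female control label names sex and the FVB/N strain and no transgene. SM22 is a promoter of smooth muscle, so the transgene was not aimed at the cells that mainly carry class II. The transgenic mice had raised right ventricular pressure, per the series description. Ages and the inducer were not given in the sources used here, and 1 control pair served both durations. A difference in age, inducer or handling between groups therefore cannot be told apart from the transgene. No group had replicate pools of 1 sex. The p-values of the group and sex comparisons therefore measure how far the female and male changes differ, in pools of 3. In the interaction of transgene and sex, the spread came from the difference between the 1 week and 8 week pools of a sex.

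As background, a class II molecule is a pair of an alpha and a beta chain. In the mouse, H2-Aa and H2-Ab1 encode the pair called I-A, and H2-Ea and H2-Eb1 the pair called I-E. Cd74, the invariant chain, occupies the groove during assembly and takes the pair to endosomes, where cathepsins trim it to the CLIP fragment. H2-DM (H2-DMa with H2-DMb1 or H2-DMb2) exchanges CLIP for peptide, and H2-DO (H2-Oa with H2-Ob), best known in B cells, restrains H2-DM. Ciita, the class II transactivator, does not bind DNA itself: it is recruited by RFX, CREB and NF-Y proteins seated on the X and Y boxes of class II promoters. In lung, dendritic cells, macrophages, B cells and alveolar type 2 cells are known to make class II.

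In the RefSeq gene order, 7 of the genes lie close together on chromosome 17, in the run H2-Oa, Brd2, H2-DMa, H2-DMb2, H2-DMb1, Psmb9, Tap1, Psmb8, Tap2, H2-Ob, H2-Ab1, H2-Aa and H2-Eb1. Ciita and Cd74 lie on other chromosomes. RefSeq windows (build GRCm38.p6) of 300 bases, from 250 before to 50 after a transcript start, were matched by symbol for 6 of the genes in 7 windows. The windows of 5 genes held CCAAT-core letters near the start, and they are printed below up to just past those letters, 5′ to 3′ in the direction of the gene, to show how far the genes share the X and Y boxes on which Ciita acts. H2-Aa had no match to the X1 letters searched. H2-DMa is not printed: 1 of its windows held ATTGG at -198 and no other match, and the other window held none. Capitals mark the letters AGCAAC or AGNAACNG (X1) and CTGATTGG or, where that was not matched, ATTGG (the Y box and its inverted CCAAT core).
H2-Aa: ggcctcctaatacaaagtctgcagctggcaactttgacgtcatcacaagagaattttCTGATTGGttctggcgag
H2-Eb1: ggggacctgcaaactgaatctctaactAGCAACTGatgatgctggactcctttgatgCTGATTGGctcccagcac
H2-DMb1: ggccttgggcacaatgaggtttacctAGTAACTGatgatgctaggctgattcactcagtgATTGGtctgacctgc
H2-Oa: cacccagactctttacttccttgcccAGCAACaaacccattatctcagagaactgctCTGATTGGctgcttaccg
H2-Ob: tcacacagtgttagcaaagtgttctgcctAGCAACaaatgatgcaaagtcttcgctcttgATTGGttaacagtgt

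These stretches are chr17:34287857-34287931 on the minus strand for H2-Aa and, on the plus strand, chr17:34305748-34305822 for H2-Eb1, chr17:34153070-34153144 for H2-DMb1, chr17:34092276-34092350 for H2-Oa and chr17:34238788-34238862 for H2-Ob. The first base of ATTGG lay at -48 from the start in H2-Aa, -59 in H2-Eb1, -61 in H2-DMb1, -43 in H2-Oa and -57 in H2-Ob. Each motif was searched on both strands. CTGATTGG, which contains ATTGG, was in 3 of the 7 windows and in 4.1% of the 32851 promoter windows of the table. CCAAT or ATTGG was in 6 of 7, against 37.4% of all windows. AGCAAC was in 3 of 7, against 14.8%, and AGNAACNG, which can overlap it, in 3 of 7, against 17.4%. In H2-Oa the AGNAACNG match was on the opposite strand at -3, outside the printed stretch. The gamma interferon site TTCNNNGAA was in 0 of 7, against 8.3%. These are matches of letters and not measured binding.

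Deposited signal intensities were on a linear scale from 10 to 11513.01. Array medians ran from 50.49 to 63.41 and were lowest in both 8 week pools, so the arrays were quantile normalized before comparison, and all levels and changes given on the log2 scale are of normalized values. All 9 alveolar type 2 markers on the array passed the filter, and so did all 8 endothelial markers, as fits the label of lung. In bulk tissue, fewer cells of a type and less RNA per cell cannot be told apart, and this holds for every gene below.

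The genes of the I-A chains and of the invariant chain gave strong signals in every pool, and their levels differed little between the groups. The mean signal of Cd74 and of H2-Aa lay at the 99.8th percentile of all probe sets, which describes hybridization and not the amount of RNA. For Cd74 the deposited intensity was 6087 in the female and 5394 in the male control pool, 6394 and 4641 in the female and male pools at 1 week, and 6088 and 5469 at 8 weeks. Its lowest pool was the 1 week male and its highest the 1 week female, so the control and 8 week values lay inside the 1 week pair. On the log2 scale, Cd74 was -0.04 ± 0.14 (SE, n = 2 pools a group) against control at 1 week and 0.05 ± 0.14 at 8 weeks. The 95% interval at 8 weeks ran from 0.80-fold to 1.34-fold of control, with an adjusted p of 0.87 in limma.

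H2-Aa, the alpha chain of I-A, had deposited intensities of 6228 in the female control, 5785 in the male control, 6141 and 4918 in the 1 week female and male, and 6284 and 6197 in the 8 week female and male. After normalization the 8 week pools stood at 12.63 and 12.62, above the control pools at 12.55 and 12.50 and the 1 week pools at 12.54 and 12.36. The 8 week group thus did not overlap either other group, by a margin of under 0.1 on the log2 scale, and in the values as deposited the 8 week male lay below the control female. The fitted change at 8 weeks was 0.10 ± 0.13 (SE), with an interval of -0.25 to 0.45 and an adjusted p of 0.694. The other kept probe sets of H2-Aa gave -0.08 (1452431_s_at) and 0.09 (1435290_x_at) at 8 weeks, so they differed in sign and not beyond their error. A further probe set of H2-Aa, 1443783_x_at, was too dim to pass the filter, with a mean log2 level of 5.01.

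H2-Ab1, its beta-chain partner, had deposited intensities of 3096 and 2853 in the female and male controls, 3142 and 2668 at 1 week, and 3198 and 2793 at 8 weeks. The normalized 8 week values, 11.59 and 11.61, lay above those of the controls, 11.52 and 11.49, and above both 1 week pools, 11.56 and 11.39. The change at 8 weeks was 0.10 ± 0.13 (SE), the same as that of H2-Aa to 2 decimals, with an adjusted p of 0.698. The remaining probe sets of H2-Ab1 gave 0.20 ± 0.18 and 0.23 ± 0.21 at 8 weeks. In these, the female and male pools were further apart: for 1451721_a_at the deposited intensities were 2513 in the female and 1682 in the male pool at 8 weeks.

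H2-Eb1, the beta chain of I-E, varied more between the control pools than between the groups. FVB/N, the strain on the female control label, is known to be of the q haplotype at H2, which has no functional I-E alpha chain. The deposited intensity of H2-Eb1 was 162.7 in the female control pool and 236.2 in the male, 183.5 and 158.3 at 1 week, and 185.0 and 212.5 at 8 weeks. The 2 control pools were themselves the lowest and the highest after normalization, at 7.20 and 7.86, and spanned both other groups. The change was -0.12 ± 0.22 (SE) at 1 week and 0.19 ± 0.22 at 8 weeks, with an adjusted p of 0.643 at 8 weeks. The probe set for H2-Ea, the alpha chain, was likewise near control at 8 weeks, with a change of 0.04, and at -0.33 at 1 week.

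**Figure D1:**
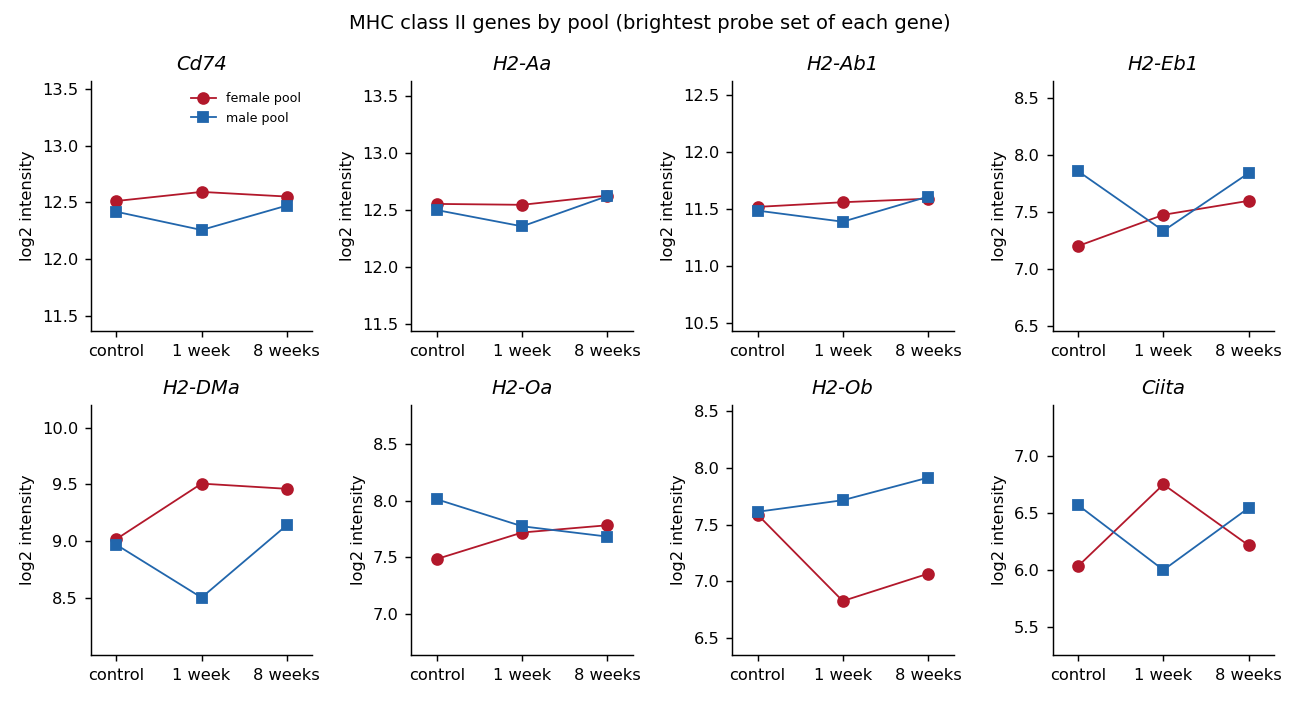
Normalized log2 intensity (vertical axis) of the brightest probe set of each of the 8 measured class II genes in the 6 pools, by group (horizontal axis: control, 1 week, 8 weeks) with female and male pools marked apart. For H2-Aa, H2-Ab1 and H2-DMa the 8 week pools lie above the control pools. For Cd74, H2-Eb1, H2-Oa, H2-Ob and Ciita the 8 week and control pools overlap.

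H2-DMa, a subunit of the peptide exchanger H2-DM, had the largest fitted change at 8 weeks among the 13 probe sets, and it was still small beside its error. The deposited intensities were 542.3 in the female control, 519.1 in the male control, 736.6 and 358.3 in the 1 week female and male, and 693.4 and 531.7 in the 8 week female and male. In normalized values the 8 week pools, 9.46 and 9.14, lay above the controls, 9.02 and 8.97. The 1 week pair held both the highest and the lowest value, at 9.51 in the female and 8.50 in the male. The change at 8 weeks was 0.31 ± 0.26 (SE), with an interval from 0.78-fold to 1.97-fold of control and an adjusted p of 0.516. It was 0.001 without the female control pool and 0.61 without the male one. A dimmer probe set of H2-DMa, 1459872_x_at, had a mean log2 level of 4.88 and did not pass the filter.

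The beta subunit of H2-DM could be read only in probe sets that name H2-DMb1 and H2-DMb2 together, which stand outside the selection. The brighter, 1449580_s_at, had deposited intensities of 725.0 and 653.5 in the female and male controls, 897.0 and 447.4 at 1 week, and 915.8 and 629.6 at 8 weeks, the same order of pools within each group as H2-DMa. Its change at 8 weeks was 0.25 ± 0.23 (SE, adjusted p = 0.555). The dimmer, 1418638_at, had 180.3 and 158.0 in the controls, 181.1 and 100.1 at 1 week, and 226.5 and 216.3 at 8 weeks. Both 8 week pools of the dimmer set lay above all 4 other pools, with a change of 0.56 ± 0.24 (SE) from control and 0.81 ± 0.24 from 1 week, and neither passed (limma adjusted p = 0.247 and 0.1996). The probe set that names H2-DMb2 alone was at -0.02 at 8 weeks.

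H2-Oa and H2-Ob, the chains of the H2-DM inhibitor H2-DO, differed in which pools were low. H2-Oa had deposited intensities of 196.3 and 263.9 in the female and male controls, 217.0 and 215.2 at 1 week, and 213.2 and 189.5 at 8 weeks. Its controls again spanned all other pools after normalization (7.49 and 8.01), and the fitted changes were -0.002 ± 0.20 (SE) at 1 week and -0.02 ± 0.20 at 8 weeks. H2-Ob had 209.1 and 200.2 in the female and male controls, 118.6 and 206.6 at 1 week, and 122.7 and 224.1 at 8 weeks. Both transgenic female pools of H2-Ob were low, at 6.83 and 7.07 on the log2 scale, while the controls and the transgenic males lay between 7.59 and 7.91. The fitted changes were -0.33 ± 0.26 (SE) at 1 week and -0.11 ± 0.26 at 8 weeks (adjusted p = 0.827 at 8 weeks). A dimmer probe set that names Gm20506 and H2-Ob together gave -0.29 at 1 week and 0.05 at 8 weeks.

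Ciita was the least precisely measured of the genes. Its brightest probe set, 1421210_at, had deposited intensities of 72.58 and 100.1 in the female and male controls, 112.7 and 63.53 at 1 week, and 65.15 and 84.45 at 8 weeks. The 1 week pair held both the highest and the lowest normalized value, 6.7526 in the female and 6.0001 in the male. The change was 0.07 ± 0.34 (SE) at 1 week and 0.08 ± 0.34 at 8 weeks, with an interval at 8 weeks from 0.57-fold to 1.96-fold of control. A second probe set, 1421211_a_at, was at the floor of 15.46 on 1 array and gave -0.82 ± 0.48 at 1 week and -0.19 ± 0.48 at 8 weeks. The remaining probe set, 1447075_at, was at the floor on 3 arrays and was not tested.

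No class II probe set passed in any comparison (limma, Benjamini-Hochberg adjustment over all 27022 kept probe sets, threshold 0.05). At 1 week against control, 0 of 13 passed, where 0% of all probe sets did. Over all probe sets, 1486 had an unadjusted p below 0.05 at 1 week, and 0 of the 13 did. The 13 changes ran from -0.82 to 0.07 with a median of -0.02, and the lowest adjusted p was 0.937. At 8 weeks against control, 0 of 13 passed and 0 had an unadjusted p below 0.05, where 0.596% of all probe sets passed (161) and 6216 had an unadjusted p below 0.05. The changes at 8 weeks ran from -0.19 to 0.31 with a median of 0.09, and 9 of 13 were above 0. Their median size was 0.10, against 0.25 over all probe sets, while their median SE was 0.20 against 0.16. Both durations were set against the same control pair.

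**Figure D2:**
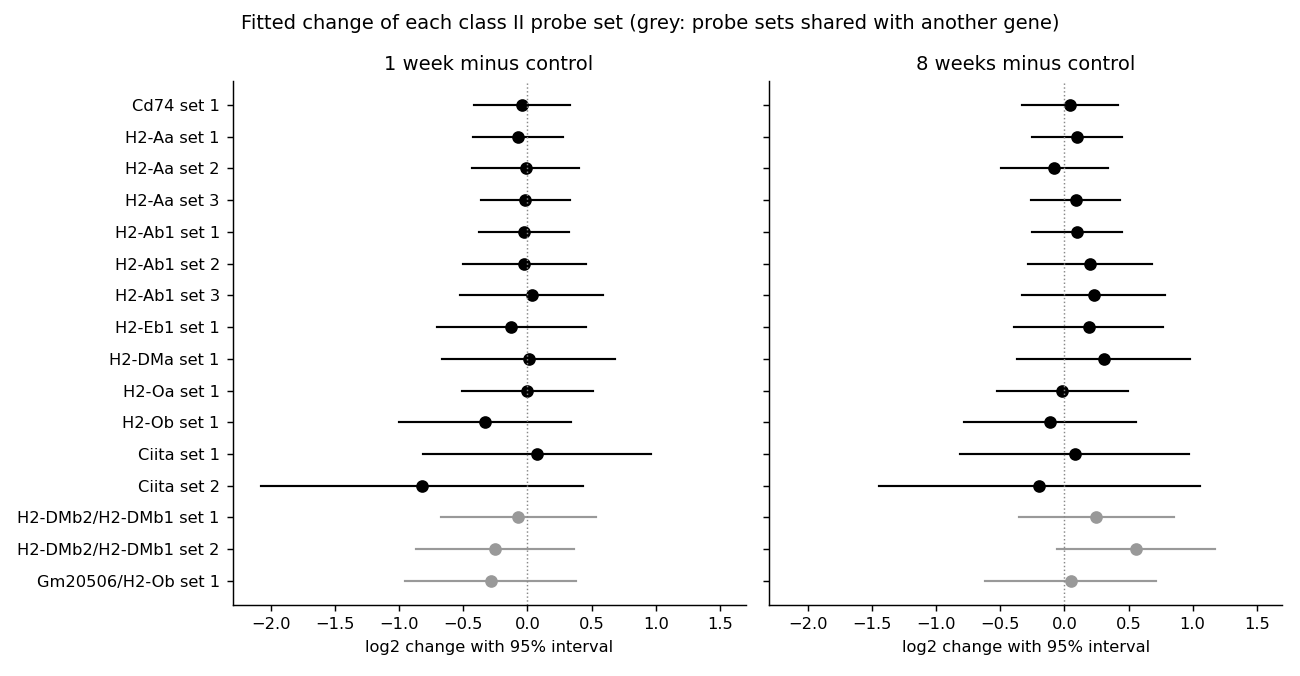
Fitted log2 change of each kept class II probe set against control at 1 week and at 8 weeks (horizontal axis, with the 95% interval as a bar); the 3 probe sets shared with another gene are in grey. All intervals in both panels include 0, and they are narrow for Cd74, H2-Aa and H2-Ab1 and wide for Ciita.

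With 1 value for each gene, the median change over the 8 genes was -0.03 at 1 week, where the median over all 13215 genes was 0.03, and 0.09 at 8 weeks, where it was 0.08. The sign of the 1 week median turned with the scaling: it was -0.07 in the values as deposited and 0.02 with arrays centred on their medians. At 8 weeks these scalings gave 0.009 and 0.28. They moved the median over all probe sets by -0.17 and 0.10, and relative to that median the 8 genes stood at 0.06, 0.14 and 0.14 under quantile normalization, no normalization and centring. Both 8 week pools lay above both controls for H2-Aa, H2-Ab1 and H2-DMa, 3 of 8 genes, which is near the 27.2% of all genes that did so. In the values as deposited, 0 of the 8 genes did, against 14.5% of all genes. With arrays centred on their medians, 4 of 8 did, against 37.9%. Under quantile normalization, both 8 week pools lay above both 1 week pools for H2-Aa, H2-Ab1 and H2-Eb1, 3 of 8, against 24.1% of all genes.

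At 1 week, the female and male pools stood on opposite sides of their controls for most of the genes. Cd74, H2-Ab1, H2-Eb1, H2-DMa, H2-Oa and Ciita, 6 of 8, were above control in the female pool and below it in the male, a pattern held by 22.5% of all genes. The count was 6 of 8 in the values as deposited and with centred arrays too, against 22.8% and 20.2% of all genes. For H2-DMa the log2 difference from the control of the same sex was 0.49 in the female and -0.47 in the male pool. For Ciita it was 0.72 and -0.57, for H2-Eb1 0.27 and -0.52, and for Cd74 0.08 and -0.16. H2-Aa was below control in both, and H2-Ob alone had the reverse, at -0.76 in the female and 0.10 in the male. Some dimmer kept probe sets differed from these brightest ones. For H2-Aa, 1452431_s_at was at 0.16 and -0.19, and 1435290_x_at at 0.06 and -0.10. For Ciita, 1421211_a_at was at -1.50, with the female pool at the floor, and -0.15. The probe set shared by Gm20506 and H2-Ob was at -0.28 and -0.29. The other kept sets of H2-Ab1 had the signs of its brightest. The median over the 8 genes was 0.16 in the female and -0.20 in the male pool. Each of these values rests on 1 pool against 1 pool and has no replicate.

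Some other gene groups were split between the same arrays. Of the 14 class I presentation genes, 11 were above control in the 1 week female and below it in the 1 week male, with medians of 0.19 and -0.12. Of the 13 macrophage and monocyte markers 7 did so, and of the 9 alveolar type 2 markers 6. Fewer did so in the remaining lists: 8 of 23 other class II pathway genes, 3 of 12 dendritic cell markers and 3 of 13 interferon gamma axis genes. It was 2 of 8 endothelial, 1 of 8 T cell and 1 of 8 alveolar type 1 markers, against 22.5% of all genes. All 11 B cell markers had the reverse, as the brightest probe set of H2-Ob had, against 23.7% of all genes. The medians of the B cell markers were -0.57 in the female and 0.20 in the male pool. Cd79a, the B cell receptor's signalling chain, was at -0.75 and 0.98. The summed linear level of the B cell markers was 3893 in the female control and 2437 in the male, 2693 and 3101 at 1 week, and 3634 and 3563 at 8 weeks. The control pair thus held its highest and its lowest value. The part that cell makeup had in the class II values was not tested.

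**Figure D3:**
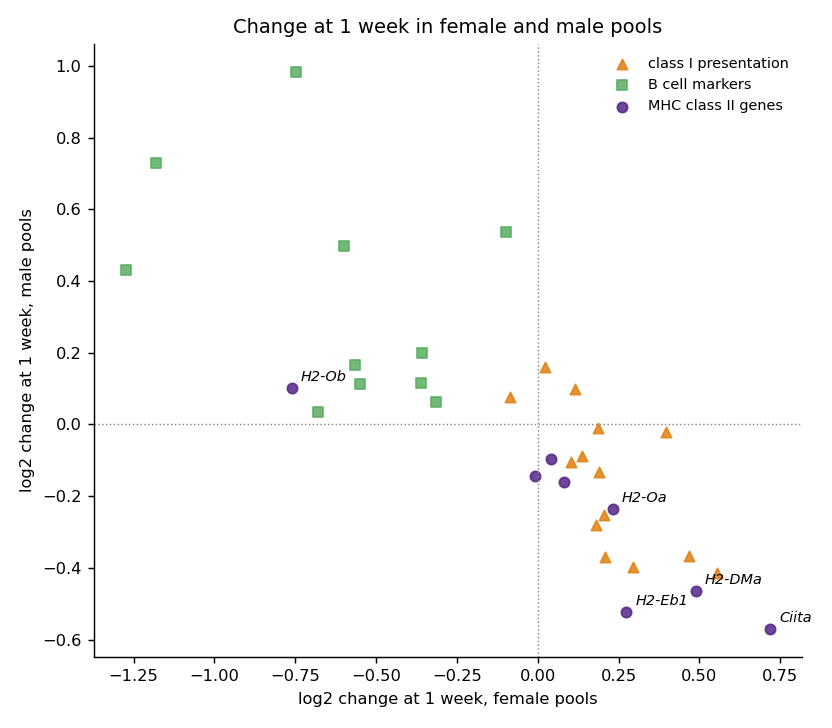
Log2 change at 1 week from the control of the same sex, female pools on the horizontal and male pools on the vertical axis. Each point is the brightest probe set of a gene, for the class II genes, class I presentation genes and B cell markers. Most class II genes fall at the lower right (above control in the female, below in the male), and H2-Ob falls in the upper left with the B cell markers.

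The fitted interaction of transgene and sex, over both durations, called 0 of 13 class II probe sets, where 0% of all probe sets passed. H2-Ob had the lowest unadjusted p of the 13, 0.0558, with an adjusted p of 0.9999. Its female change was lower than its male change by 0.84 ± 0.33 on the log2 scale (SE), and for 11 of the 13 probe sets the female change was the higher. In the probe set shared by Gm20506 and H2-Ob, outside the 13, the female change was also the higher, by 0.42 ± 0.52.

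Female and male pools were also compared over all 3 groups. In this comparison 0 of 13 class II probe sets passed, where 8.3% of all probe sets did. H2-Ob was lower in females by 0.59 ± 0.21 on the log2 scale (SE), with an unadjusted p of 0.0403 and an adjusted p of 0.149 in limma. In this probe set, 1440837_at, the female minus male difference was -0.02 in controls, -0.89 at 1 week and -0.84 at 8 weeks. It was thus seen in the transgenic groups and hardly in the controls. The probe set shared by Gm20506 and H2-Ob did not have this pattern, at -0.30, -0.30 and 0.54 in the same order. H2-DMa was higher in females by 0.46 ± 0.21 (SE, limma adjusted p = 0.227), with differences of 0.05, 1.00 and 0.32.

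The change from 1 week to 8 weeks was taken between the transgenic pools, with the spread estimated over all 6 arrays. Again 0 of 13 passed and 0 had an unadjusted p below 0.05, where 0% of all probe sets passed and 5000 had an unadjusted p below 0.05. The changes ran from -0.06 to 0.63 with a median of 0.17, and 11 of 13 were above 0. H2-Eb1 was at 0.32 ± 0.22 (SE) and had the lowest adjusted p, 0.493. For Cd74 the change was 0.09 ± 0.14, with an interval of -0.29 to 0.46. The median difference between the durations over the 8 genes was 0.24 in the male pools and 0.05 in the female pools.

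Some genes that act on class II proteins stood well above control in both sexes at 8 weeks, although none of them passed. Of 26 listed pathway genes, 23 passed the filter on low signal and 0 passed the test in either direction at either duration. At 8 weeks 16 were above and 7 below control, with a median of 0.18. Over all 13215 genes, 7949 were above and 5262 below, with a median of 0.08. Ctss, cathepsin S, which cuts the invariant chain in antigen-presenting cells, was at 10.71 and 11.10 on the log2 scale in the female and male controls, 10.93 and 10.87 at 1 week, and 12.00 and 12.13 at 8 weeks. Both 8 week pools lay well above the other 4, with a fitted change of 1.16 ± 0.16 (SE) and an adjusted p of 0.0637. Ctsd, another lysosomal protease, was at 0.79 ± 0.14 (adjusted p = 0.0829). Marchf1, a ubiquitin ligase that removes class II from the cell surface, was at 0.66 ± 0.17 (adjusted p = 0.132), and Cd86, a costimulatory ligand, at 0.63 ± 0.13 (adjusted p = 0.105). In the comparison of sexes, Marchf8, a relative of Marchf1, was the pathway gene that passed: it was lower in females by 0.60 ± 0.11 on the log2 scale (SE, adjusted p = 0.0484).

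Genes for the proteins that seat Ciita on the promoters were measured too. At 8 weeks Rfx5 was at -0.03, Rfxank at 0.39, Rfxap at 0.07, Nfya at 0.34, Nfyb at -0.03 and Nfyc at -0.18, and none passed. Of the interferon gamma axis, which is known to induce Ciita, 13 of 15 listed genes passed the filter. At 8 weeks 8 were above and 5 below control, where 7949 of all 13215 genes were above. The median was 0.10, and 0 passed the test. Cxcl9, a chemokine strongly induced by interferon gamma, was at 2.10 ± 0.36 (SE, adjusted p = 0.0807), with the male control at the floor. Cxcl10, its relative, was at 1.26 ± 0.29 and Irf4, a transcription factor of lymphocytes and myeloid cells, at 0.80 ± 0.14. Socs1, an inhibitor of this signalling, was at -0.54 ± 0.27, and Ifng itself was too dim to pass the filter. At 1 week the medians were 0.02 for the pathway genes and -0.05 for the interferon gamma axis.

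Class I presentation genes, which serve CD8+ T cells and of which several lie in the same chromosomal region, had a median of 0.04 at 8 weeks over the 14 measured, with 8 above and 6 below control and 0 that passed. H2-K1, a classical class I heavy chain, was at -0.27 ± 0.17 (SE) and B2m, the class I light chain, at -0.22 ± 0.18. Psmb8, an immunoproteasome subunit encoded between H2-DMb1 and H2-Ob, was at 0.33 ± 0.26, and Calr, a chaperone of class I assembly, at 0.23 ± 0.13. The class II and class I medians at 8 weeks lay close to that of all genes, 0.08. Of all 13215 genes, 7949 were above control at 8 weeks.

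**Figure D4:**
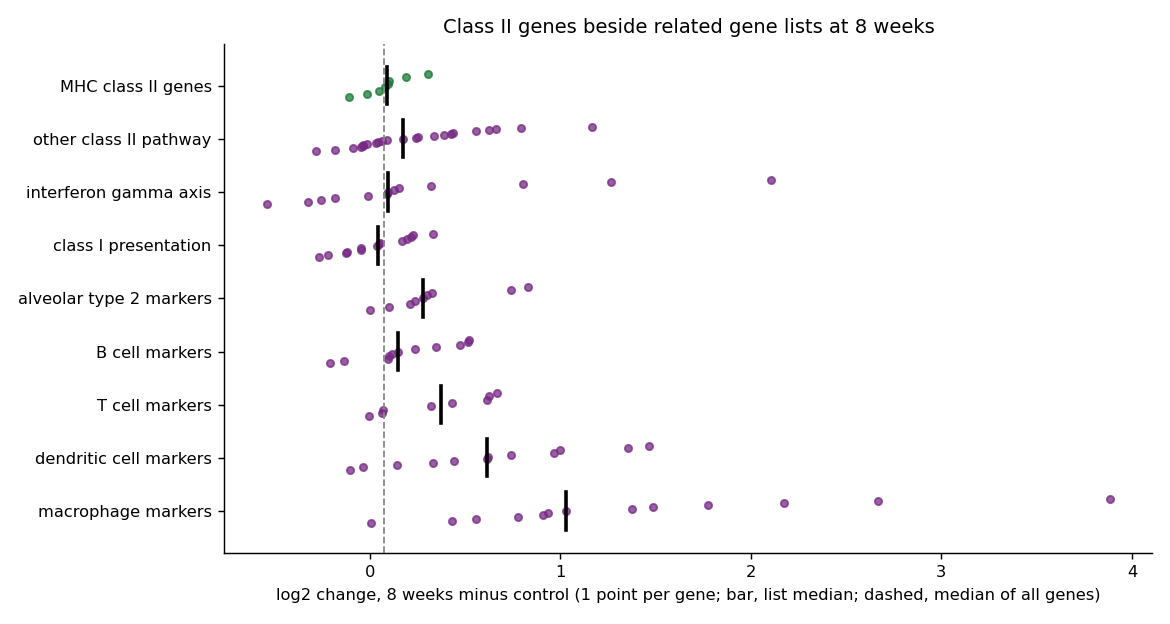
Log2 change at 8 weeks against control for the genes of each list, 1 point per gene, with a bar at the list's median and a dashed line at the median of all genes, 0.08. The class II genes lie close to the dashed line, whereas most macrophage and monocyte markers and most dendritic cell markers lie above it.

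Markers of cells that carry class II were read on the same arrays. Of 12 dendritic cell markers that passed the filter, 10 were above and 2 below control at 8 weeks, with a median of 0.62. In both sexes 9 were above control. Of all 13215 genes, 7949 were above control, and 42.2% were above it in both sexes. Clec10a, a lectin of dendritic cells and macrophages, was the 1 marker that passed and rose, by 1.46 ± 0.14 (SE, limma adjusted p = 0.047). With each array left out its change ran from 1.41 to 1.52. The call held without the 8 week male pool and ended without any other single array. It also ended with the sex term left out (adjusted p = 0.1942), with no filter on low signal (0.1614), with only the groups compared (0.1442) and with no moderation of the variance (0.274). Itgax, which encodes CD11c, was at 1.35 (adjusted p = 0.069). Ccl22 and Siglech, a chemokine of mature and a lectin of plasmacytoid dendritic cells, were at 1.00 ± 0.25 and 0.96 ± 0.24 (adjusted p = 0.1231 for each). The lowest of the 12 were Zbtb46 at -0.11, Itgae at -0.03 and Flt3 at 0.14. Xcr1, at the floor on 4 arrays, did not pass the filter. The summed level of the dendritic cell markers was 1792 to 1900 in the controls, 1836 to 1944 at 1 week and 2840 to 2887 at 8 weeks.

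All 13 macrophage and monocyte markers measured were above control at 8 weeks, where 7949 of all 13215 genes were. The markers ran from 0.006 for Csf1r to 3.89 for Chil3. Their median was 1.03, and 0 passed. Their summed level was 9715 to 11593 in the controls, 10085 to 12813 at 1 week and 18347 to 19249 at 8 weeks. Over the same pools the summed level of the class II genes was 15412 to 15890 in the controls, 13837 to 16511 at 1 week and 16446 to 16741 at 8 weeks. The summed levels of both marker lists were thus higher at 8 weeks in both sexes, and the summed class II level differed by far less. Such sums rest mainly on the brightest genes. These were Cd74, H2-Aa and H2-Ab1 for class II, and Lyz2 and Chil3 for macrophages and monocytes at 8 weeks. Among the dendritic cell markers, Fscn1 and Itgax were the brightest at 8 weeks. The part of these cells in the class II values was not tested.

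For the other marker lists, the median at 8 weeks was 0.15 for B cells (9 of 11 above control) and 0.37 for T cells (7 of 8). It was 0.28 for alveolar type 2 cells (8 of 9), with Sftpc at the top of the scale in the controls and at 8 weeks. It was -0.03 for alveolar type 1 cells (3 of 8) and -0.16 for endothelial cells (1 of 8). Of the genes in these lists 0 passed. Of all 13215 genes, 7949 were above control at 8 weeks. At 1 week the medians were 0.10 for dendritic cells, 0.29 for macrophages and monocytes, -0.13 for B cells, -0.29 for T cells, -0.04 for alveolar type 2 cells, -0.06 for alveolar type 1 cells and -0.02 for endothelial cells. Between sexes, Cd22, a B cell surface lectin, and Cd2, a T cell adhesion molecule, were higher in females by 0.81 ± 0.13 and 0.73 ± 0.12 (SE, adjusted p = 0.0368 and 0.0353), and both passed. These calls and that of Marchf8 ended with no filter on low signal, with no moderation of the variance and without any single array. That of Marchf8 also ended in the values as deposited (limma adjusted p = 0.0581) and with centred arrays (0.0602). It ended too without probe sets whose names end in _a_at, _s_at or _x_at (0.0552).

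Across the 6 arrays, which share the groups and the sexes, the genes fell into looser and tighter company. As a description with no test, H2-Aa and H2-Ab1, the partner chains of I-A, had a Pearson r of 0.98, and H2-DMa and Cd74 had 0.95. H2-DMa with H2-Ab1 had 0.86 and Cd74 with H2-Ab1 had 0.84. H2-Ob ran against them, at -0.74 with H2-DMa and -0.67 with Cd74. H2-Oa and H2-Ob, the chains of H2-DO, had -0.03. H2-Eb1 was most like H2-Oa (0.67) and Ciita (0.66). Among 12617 other genes, those most like the mean profile of the 8 over these 6 arrays were Ina (r = 0.99), Mbp (0.98), Hsph1 (0.98), Tmem62 (0.97) and Zfp120 (0.97). For Hsph1, a chaperone, the log2 levels were 9.35 and 9.94 in the female and male controls, 9.66 and 8.97 at 1 week and 9.64 and 9.95 at 8 weeks. Its lowest pool was the 1 week male, as was that of the mean profile.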

How the data were processed

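Whole-lung RNA of 18 mice in 6 pools was biotin labelled and hybridized to Affymetrix arrays, per the labels' protocols. The deposited values are signal intensities on a linear scale, with no missing value. How the authors summarised and scaled them is not given in the sources used here. Extraction was described for the transgenic pools only.

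Arrays were quantile normalized, values under the 20th percentile (15.46) raised to it, and log2 taken. Values at this floor are upper limits. Probe sets with a mean above the 40th percentile were kept (27022 of 45037). Symbols came from the platform annotation: 34945 probe sets had 1 symbol, 932 several and 9160 none. limma 3.58.1 in R 4.3.3 fitted group and sex over all 6 arrays (residual df 2, prior df 2.77), and transgene, sex and their interaction in a second model (prior df 2.48). P-values were adjusted by Benjamini-Hochberg within a comparison, threshold 0.05. A gene's value is that of its brightest single-symbol probe set. Every class II probe set is given. Of the other lists, up to 4 members by absolute change at 8 weeks and any that passed were named by rule. Others (the RFX and NF-Y genes, H2-Ea, H2-DMb2, Ifng, Zbtb46, Itgae, Xcr1, Flt3, Fscn1, Sftpc, Cd79a, Csf1r, Lyz2) were named after their values were seen. The 5 most similar genes were ranked by Pearson correlation. The class II genes and all lists were chosen with earlier results of these data known. The model was tested on simulated data. Alternatives changed the normalization, floor, filter, probe sets, sex term, arrays used and moderation. The number of arrays limits the precision. Plots used matplotlib 3.10.9 in Python 3.11.15.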

Additional observations from a re-analysis of the deposited data

Results flagged for a closer look

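For 4 class II genes, the 1 week and 8 week female pools lay on one side of the female control and the 1 week and 8 week male pools on the opposite side of the male control. These were 4 of 8 genes, and 15.4% of all 13215 genes had a split of either kind. Each sex has 1 control pool, which both durations share. The difference was tested as the interaction of transgene and sex in limma, with the 1 week and 8 week pools of a sex taken as replicates. The adjusted p was 0.9999 for each gene. For H2-Eb1 the female change exceeded the male change by 0.6058 (SE 0.41, unadjusted p = 0.204), with mean changes of 0.34 in females and -0.27 in males. For H2-Oa the difference was 0.5473 (SE 0.28, unadjusted p = 0.116), with 0.26 and -0.28. For Ciita it was 0.7476 (SE 0.52, unadjusted p = 0.217), with 0.45 and -0.30. H2-Ob had the reverse, at -0.8412 (SE 0.33, unadjusted p = 0.0558), with -0.64 in females and 0.20 in males. All these values are of each gene's brightest probe set. The opposite sign was found in 1421211_a_at of Ciita (-0.36) and in the probe set shared by Gm20506 and H2-Ob (0.42). None passed the test of the difference.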

How the results depend on the processing

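No class II probe set passed at 1 week, at 8 weeks, at 8 weeks against 1 week or in the interaction under any alternative that could be fitted. Between the sexes 1 passed with trend and robust moderation (H2-Aa, 1452431_s_at), and this was 1 of 84 counts. The median change over the 8 genes at 8 weeks was 0.009 in the values as deposited, 0.281 with arrays centred on their medians and 0.0417 when the kept probe sets of a gene were averaged, and it ran from -0.0044 to 0.189 with each array left out. At 1 week the other settings gave -0.0739 to 0.0161 and leaving out each array -0.1863 to 0.0972. Signs at 8 weeks turned for Ciita in the values as deposited (-0.2003) and when its kept probe sets were averaged (-0.0577), and for H2-Oa with centred arrays (0.0925). With each array left out, the 8 week change ran from -0.0209 to 0.1143 for Cd74, -0.1123 to 0.4935 for H2-Eb1, 0.001 to 0.6129 for H2-DMa, -0.2892 to 0.2581 for H2-Oa, -0.5305 to 0.3107 for H2-Ob and -0.2949 to 0.4528 for Ciita. The lowest adjusted p of any of the 8 genes at 8 weeks was 0.2654. Over all probe sets the count of calls at 8 weeks was 461 as deposited, 705 centred, 439 with a floor at the 40th percentile, 583 with log2(value + 16), 505 with a filter at the 60th percentile and 1916 with trend and robust moderation. It was 0 with no filter, no sex term, only the groups compared or no moderation. With 1 array left out it was 1071 without the 8 week male and 0 without any of the others. Between the sexes, 2244 passed, and 0 to 4183 under the alternatives. The interaction could not be fitted without a control pool, without the sex term or with only the groups compared.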
